A study of Rattus norvegicus with 16 samples.

Results

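Slc17a6, Slc17a7 and Camk2a, 3 genes used as markers of glutamate neurons, were followed in nucleus basalis of Meynert tissue. This part of the basal forebrain holds the cholinergic cells that supply the cortex. They are 3 of the 32883 genes counted in every library, taken by name, identifier and chromosome and not by a threshold on their values, and all 3 lay on the listed chromosome. The rats were Long Evans animals of a ChAT::Cre line, in which Cre recombinase marks cells that make choline acetyltransferase, and all groups carried this genotype and an age of at least 70 days. Bulk RNA gave 16 libraries in 4 groups of 4: female stress (called stressed females), female control, male stress (stressed males) and male control. The labels do not name separate animals, so tests measure the spread between these libraries, and the labels do not spell out the kind of stress. The series text speaks of more replicates than the 4 per group analysed here. Libraries carry the number in their title, and for stressed females that number differs from the one in the count file, which moves no library between groups.

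Glutamate neurons load their transmitter into synaptic vesicles through vesicular glutamate transporters of the SLC17 family. Slc17a6 encodes VGLUT2, the form typical of thalamus, hypothalamus and other subcortical regions, and Slc17a7 encodes VGLUT1, the form typical of cortex and hippocampus. Camk2a encodes the alpha subunit of calcium/calmodulin-dependent protein kinase II, which acts in synaptic plasticity. It is widely used to mark forebrain excitatory neurons, yet the GABA-releasing spiny neurons of the striatum also make it. In the basal forebrain, VGLUT2 neurons lie among the cholinergic and GABA neurons.

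On Rnor_6.0, Slc17a6 (ENSRNOG00000016147) spans chromosome 1 from 106998623 to 107038704, plus strand, with 4051 exonic bases in 12 distinct exon intervals. Slc17a7 (ENSRNOG00000020650) lies on the same chromosome and strand, from 101161252 to 101173174, with 3210 exonic bases in 16 intervals. Camk2a (ENSRNOG00000018712) spans chromosome 18 from 56193978 to 56295869, plus strand, with 1514 exonic bases in 28 intervals. The spans of the first pair, 40082 and 11923 bases, are close to the 40053 and 11878 bases of the genes of those symbols in RefSeq on GRCr8, another build, while that of Camk2a, 101892 bases, exceeds the RefSeq span of 62727. A gene of 68 bases, ENSRNOG00000055240, lies within the span of Camk2a but in none of its exons and had at most 3 counts in any library.

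Mitochondrial genes took 64.2% to 82.5% of the gene counts of a library. HTSeq had counted 13 libraries, with 22.7 to 38.2 M (mega) gene counts each, of which 5.86 to 10.2 M came from nuclear genes. The other 3, control female 10, stressed male 11 and control male 20, had been counted with featureCounts and held 63.1 to 73.8 M (12.9 to 22.6 M nuclear), with each mate of a read pair counted on its own, and results that changed direction without them are given both ways, here or in the closing section. The lists of other glutamate genes and of cell type markers could not be applied, since the files give identifiers only and 0 of them appear in the RefSeq name table at hand. The labelled tissue was therefore not checked against cholinergic markers.

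The 3 genes differed in level by orders of magnitude. Levels are counts scaled to a common library size by the TMM method and given in counts-per-million (CPM), and levels of different genes are compared per kilobase of exon. Camk2a averaged 44.0 CPM per kilobase over the 16 libraries and stood above 97.9% of the 14241 genes tested. Slc17a6 averaged 1.73 CPM per kilobase, above 46.3% of them, and Slc17a7 only 0.114, above 2.98%. Camk2a was above Slc17a6 in 16 of 16 libraries, by 5.33-fold in control female 10 up to 51.7-fold in stressed male 13. Slc17a6 was in turn above Slc17a7 in 16 of 16, by a median of 19.4-fold. The per-kilobase value depends on the gene model, and that of Camk2a has the fewest exonic bases of the 3. In bulk RNA, fewer cells of a type and less RNA per cell cannot be told apart, here and in every result that follows.

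Slc17a6, the VGLUT2 gene, had means of 7.31 to 8.05 CPM in 3 groups and of 4.92 CPM in stressed males, a difference that passed the test in no comparison with the low-count filter in place. Stressed females 1, 2, 3 and 4 had 13.4, 6.84, 7.08 and 4.86 CPM. Control females 6, 7, 8 and 10 had 5.01, 7.77, 5.04 and 13.5 CPM. In each of these 2 groups 1 library lay above the other 3, and the groups covered nearly the same range. Control males 16, 17, 18 and 20 had 5.17, 4.67, 6.33 and 13.1 CPM. Stressed males 11, 12, 13 and 14 had 5.37, 5.33, 4.20 and 4.76 CPM. Thus 3 of the 16 libraries, 1 in each group other than stressed males, lay at 13.1 to 13.5 CPM, and the remaining 13 lay at 4.20 to 7.77 CPM. Dixon's ratio, the gap to the nearest library over the range of the group, was 0.741 in stressed females, 0.674 in control females and 0.803 in control males, each under Dixon's critical value for 4 samples, so none of the 3 passed that check as standing apart in its group.

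In order of the group means, Slc17a6 was at 8.05 ± 3.7 CPM in stressed females, 7.82 ± 4.0 in control females, 7.31 ± 3.9 in control males and 4.92 ± 0.55 in stressed males (SD, n = 4). Neighbours in this order did not differ beyond their spread. With stress in females its log2 fold change was 0.01 (SE 0.39, 95% interval -0.83 to 0.86, adjusted p = 0.996 by edgeR's quasi-likelihood test with Benjamini-Hochberg adjustment). With stress in males it was -0.59 (SE 0.40, interval -1.44 to 0.27, adjusted p = 0.786), and -0.13 when control male 20, the highest male library, was left out. On average over the sexes it was -0.29 (interval -0.89 to 0.32, adjusted p = 0.794). This average was 0.13 when the featureCounts libraries were left out, and with 1 library left out it ran from -0.47 without stressed female 1 to -0.06 without control male 20. The female minus male difference of the stress effect was 0.60 (interval -0.60 to 1.80, adjusted p = 1.0). It was 0.15 without control male 20, 0.24 without stressed female 1 and 1.02 without control female 10.

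Between the sexes, Slc17a6 differed by a log2 fold change of 0.11, female minus male, in controls (interval -0.73 to 0.95, adjusted p = 0.986 by edgeR). In stressed rats the value was 0.71 (interval -0.16 to 1.57, adjusted p = 0.881). This was the single comparison in which a setting produced a call: with no low-count filter the value was 0.71 with an adjusted p of 0.00828 by edgeR. Without the filter 105 of 25215 genes were called in this comparison, against 13 of 14241 with it. The stressed female and stressed male libraries overlapped, at 4.86 to 13.4 against 4.20 to 5.37 CPM. Leaving out stressed female 1, the highest of the 8, lowered the value to 0.35, with the filter in place. With the filter in place the unadjusted p was 0.0101 without the featureCounts libraries (adjusted p = 0.626) and 0.00238 with the counting program as a covariate (adjusted p = 0.513), both by edgeR. Without the filter, unadjusted edgeR p-values of Slc17a6 and Camk2a also fell in several other comparisons, at similar fold changes. For stress in males they were 0.000388 and 0.00149, against 0.166 and 0.216 with it. Between stressed sexes that of Camk2a was 0.00181, against 0.227. None of these was called, and why they fell was not tested.

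**Figure D1:**
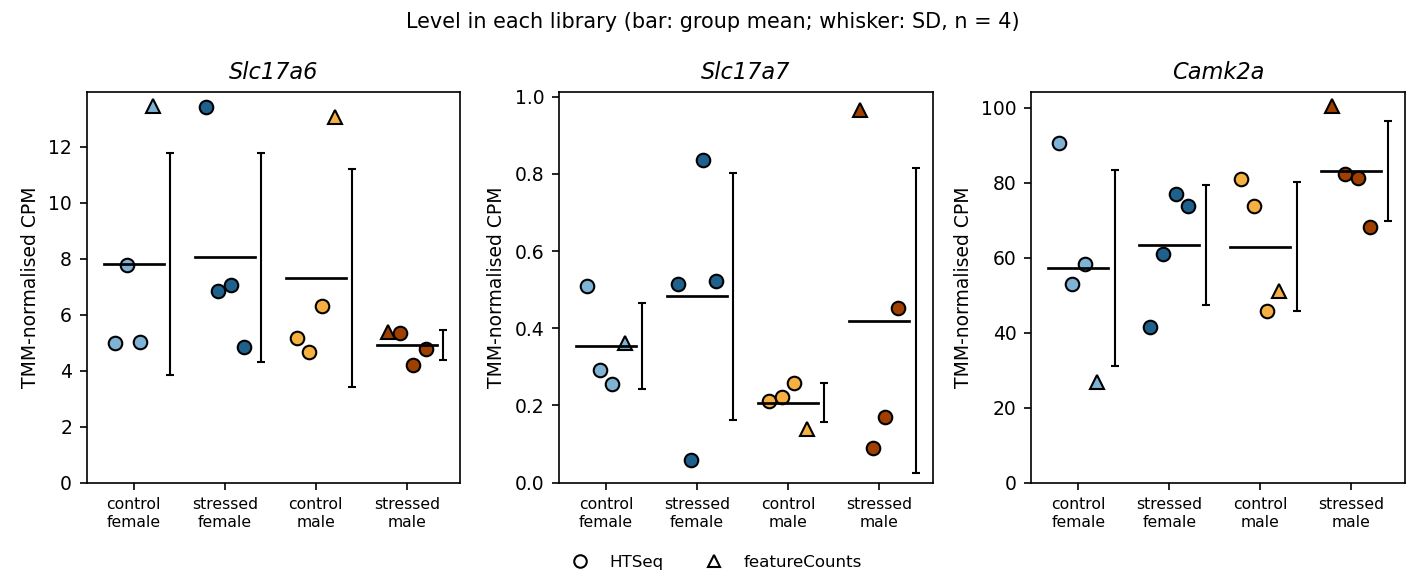
Level of Slc17a6, Slc17a7 and Camk2a in TMM-normalised CPM (vertical axes, from 0, on a separate scale for each gene) in each of the 16 libraries, by group; circles are HTSeq and triangles featureCounts libraries, the bar is the group mean and the whisker the SD over 4 libraries. In Slc17a6 3 libraries sit at 13.1 to 13.5 CPM and the other 13 at 4.20 to 7.77. All groups overlap in all 3 genes, and the share of all genes whose groups overlap was not computed.

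Slc17a7, the VGLUT1 gene, was close to the limit of detection in all groups. It passed the low-count filter, but only 9 of 16 libraries reached the filter's own level. Stressed females 1, 2, 3 and 4 had 17, 2, 29 and 19 counts, or 0.513, 0.0597, 0.835 and 0.521 CPM. Control females 6, 7, 8 and 10 had 14, 7, 8 and 32 counts, or 0.508, 0.291, 0.255 and 0.362 CPM. Stressed females thus held both the lowest library of all 16 and the second highest. Stressed males 11, 12, 13 and 14 had 51, 3, 6 and 11 counts, or 0.965, 0.0899, 0.170 and 0.452 CPM. Control males 16, 17, 18 and 20 had 7, 7, 11 and 8 counts, or 0.210, 0.222, 0.259 and 0.138 CPM. Counting error alone is wide at such counts: the exact Poisson 95% interval was 0.00723 to 0.216 CPM for stressed female 2 and 0.718 to 1.27 CPM for stressed male 11, where the mates of a pair were counted separately, so that its interval may be too narrow. These intervals cover counting error only.

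The group means of Slc17a7 ran from 0.482 ± 0.32 CPM in stressed females through 0.419 ± 0.40 in stressed males and 0.354 ± 0.11 in control females to 0.208 ± 0.050 in control males (SD, n = 4). No neighbouring means were further apart than the larger SD of the pair except control females and control males, whose difference did not pass the test (log2 fold change 0.78, interval -0.58 to 2.14, adjusted p = 0.911 by edgeR) and whose libraries overlapped. With stress in males the log2 fold change was 1.06 (SE 0.65, interval -0.28 to 2.40, adjusted p = 0.731). It was -0.03 without the featureCounts libraries, which include stressed male 11 with the highest level of all, and 0.15 without stressed male 11 alone. With stress in females it was 0.44 (SE 0.63, interval -0.85 to 1.74, adjusted p = 0.942), but 0.04 without stressed female 3 and 0.80 without stressed female 2. The average over the sexes was 0.75 (interval -0.18 to 1.68, adjusted p = 0.595) and 0.30 without stressed male 11. The sex difference of the stress effect was -0.62 (interval -2.47 to 1.23, adjusted p = 1.0) and the sex difference in stressed rats 0.16 (interval -1.11 to 1.43, adjusted p = 0.992). The interval for stress in males allowed changes of Slc17a7 from 0.826-fold to 5.29-fold.

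Camk2a, the kinase gene, had its highest mean in stressed males and its widest spread in control females. Stressed females 1, 2, 3 and 4 had 41.6, 60.9, 76.9 and 73.7 CPM. Control females 6, 7, 8 and 10 had 90.4, 53.0, 58.4 and 26.8 CPM, which includes the lowest value of the series and its second highest. Stressed males 11, 12, 13 and 14 had 100.5, 82.2, 81.3 and 68.2 CPM. Control males 16, 17, 18 and 20 had 81.0, 73.9, 45.7 and 51.1 CPM. Stressed males were the highest group, but 2 control males lay within their range.

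The order of the Camk2a means was stressed males at 83.0 ± 13 CPM, stressed females at 63.3 ± 16, control males at 62.9 ± 17 and control females at 57.2 ± 26 (SD, n = 4). Stressed males stood above stressed females by more than either SD, yet the difference did not pass the test (log2 fold change -0.39, female minus male, SE 0.31, interval -1.06 to 0.28, adjusted p = 0.921 by edgeR). The other neighbours were within their spread. The log2 fold change with stress was 0.40 in males (SE 0.31, interval -0.27 to 1.07, adjusted p = 0.819) and 0.15 in females (SE 0.31, interval -0.52 to 0.82, adjusted p = 0.969). The female value was -0.09 once the featureCounts libraries, here control female 10, were left out. The average was 0.28 (interval -0.20 to 0.75, adjusted p = 0.727; 0.16 without control female 10 and 0.43 without control female 6), the sex difference of the stress effect -0.25 (interval -1.20 to 0.70, adjusted p = 1.0) and the sex difference in controls -0.14 (interval -0.81 to 0.53, adjusted p = 0.969). The last turned to 0.01 without the featureCounts libraries.

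Across the 6 comparisons, 0 of the 3 genes were called at an adjusted p under 0.05 in any, and 0 of 3 had an unadjusted p under 0.05. DESeq2 and limma voom also called 0 of 3 in each, where DESeq2 gave no adjusted p for Slc17a7 between the control sexes. Among all 14241 genes edgeR called 0.0632% for stress in females, 0.119% for stress in males, 0.337% for the average over the sexes, 0% for the sex difference of the stress effect, 0.112% between the control sexes and 0.0913% between the stressed sexes. An unadjusted edgeR p under 0.05 was found for 6.48%, 7.7%, 10.2%, 4.01%, 6.19% and 5.68% of them, in the same order. For the sex difference of the stress effect this was 571 genes, and DESeq2 called 1 and limma voom 0. Both counts of 0 of 3, adjusted and unadjusted, are near these shares over all genes. The plot of fitted differences shows that the intervals of Slc17a6 and Camk2a still allow changes in either direction. For stress in males they run from 0.367 to 1.21-fold for Slc17a6 and from 0.832 to 2.10-fold for Camk2a.

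**Figure D2:**
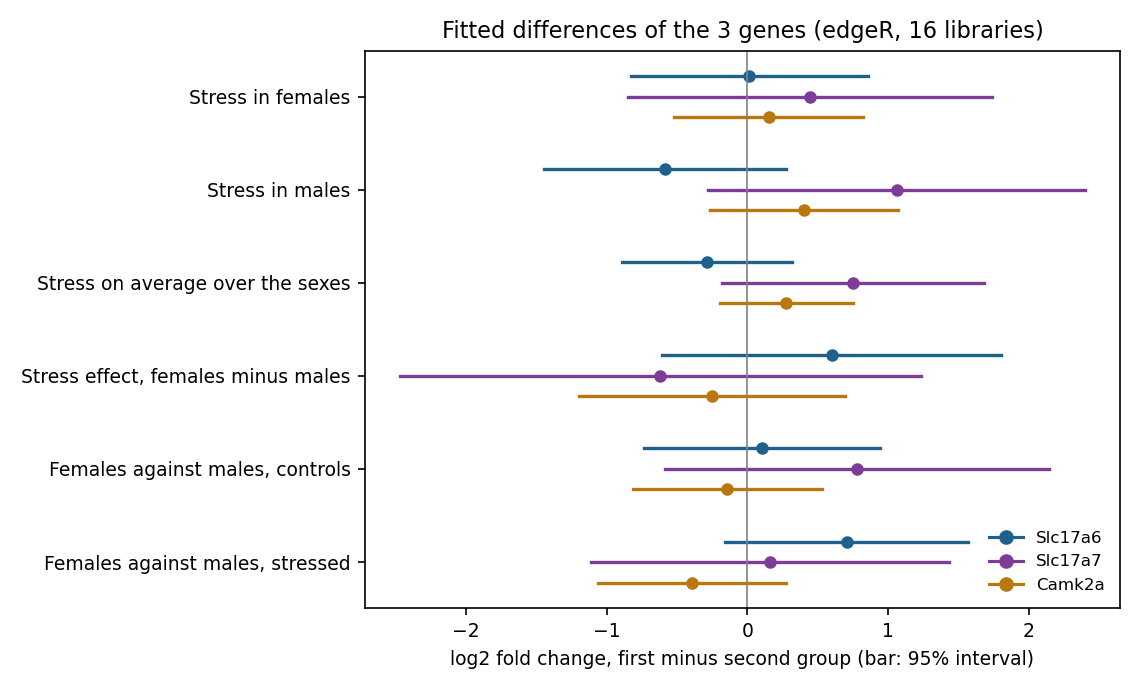
Log2 fold changes (horizontal axis) of the 3 genes in the 6 comparisons (rows), with points for the edgeR estimate over 16 libraries and bars for the 95% interval. Every bar crosses 0, and those of Slc17a7 are the widest, up to -2.47 to 1.23 for the sex difference of the stress effect.

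Libraries of the same group differed more in these genes than in most others. Between the lowest and the highest of the 16 libraries, Slc17a6 differed 3.20-fold and Camk2a 3.75-fold. The SD of log2 CPM within groups was 0.57 for Slc17a6, 0.47 for Camk2a and 0.94 for Slc17a7, against a median of 0.28 over all genes tested. That median is over genes of all levels and was not matched for level. The SD of Slc17a7, at 2 to 51 counts per library, includes a wide counting error. The biological coefficient of variation, edgeR's estimate of spread beyond counting error, was 37.8% for Slc17a6, 30.1% for Camk2a and 53.9% for Slc17a7, where the median gene had 18.6%. These exceeded the values of 85.5%, 76.7% and 96.7% of the genes tested. The 4 groups accounted for 19.1% of the variance of log2 CPM in Slc17a6, 24.7% in Camk2a and 10.5% in Slc17a7.

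Camk2a tended to be low where Slc17a6 was high. The 3 libraries highest in Slc17a6 ranked among the 4 lowest in Camk2a, with 26.8 CPM in control female 10, 41.6 in stressed female 1 and 51.1 in control male 20, together with control male 18 at 45.7. Over all 16 libraries the correlation of their log2 CPM was negative (Pearson r = -0.79, permutation p = 0.00054, adjusted p = 0.00162 over the 3 pairs of genes; Spearman rho = -0.61, permutation p = 0.015, adjusted p = 0.0451). On deviations from the group means r was -0.76 (adjusted permutation p = 0.00204). It was -0.68 (adjusted permutation p = 0.0236) without control female 10 and control male 20, the farthest there in Slc17a6. The deviations were not recomputed without these libraries. Both p-values come from permuting the deviations freely over libraries although group means had been removed, so they may be too small. Without the 2 libraries farthest from the median in Slc17a6, stressed female 1 and control female 10, r was -0.58 (adjusted permutation p = 0.0714). Within the 13 HTSeq libraries r was -0.73 (adjusted permutation p = 0.0121), and -0.42 (adjusted permutation p = 0.598) once stressed female 1 and control female 7 were left out. Without all 3 libraries highest in Slc17a6, a choice made after seeing the data that also narrows the range of Slc17a6, r was -0.50 (permutation p = 0.0823, adjusted p = 0.247; rho = -0.29, permutation p = 0.341). The sign was thus negative in each of these sets, and whether the relation passed the test depended on which libraries were included. The 3 featureCounts libraries are too few for a value of their own. Of the libraries highest in Slc17a6, control female 10 and control male 20 were counted with featureCounts. Stressed female 1 had 62.0% of entries naming no gene, against an HTSeq median of 47.2%, with 15.4% not aligned. The part of these traits in the correlation was not tested.

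**Figure D3:**
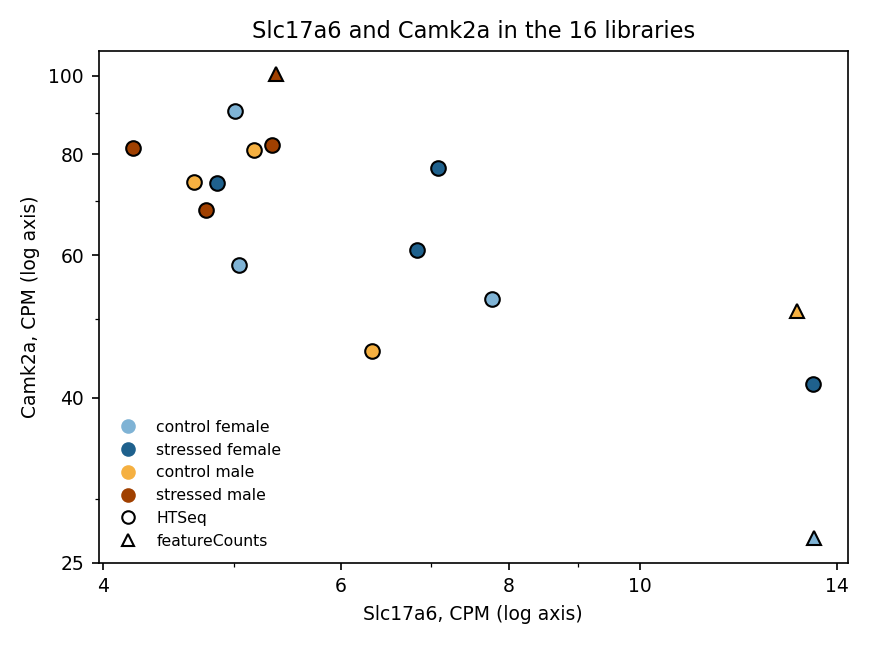
Camk2a (vertical log axis) against Slc17a6 (horizontal log axis) in CPM, 1 point per library, coloured by group, with triangles for featureCounts libraries. The 3 libraries at 13.1 to 13.5 CPM of Slc17a6 had 26.8 to 51.1 CPM of Camk2a, and the correlation was -0.79 over 16 libraries and -0.50 over the other 13.

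No relation of Slc17a7 with either gene passed the test. Its correlation with Slc17a6 over 16 libraries was r = 0.01 (permutation p = 0.97; rho = 0.09, permutation p = 0.739), and -0.20 (permutation p = 0.494) without stressed female 1 and control female 10. With Camk2a it was r = 0.12 (permutation p = 0.666; rho = 0.07, permutation p = 0.787), and -0.075 (permutation p = 0.801) without stressed female 2 and stressed male 11. Over the 3 pairs the adjusted p of both was 0.97. The low counts of Slc17a7 widen the error of its levels, so a relation could be missed.

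Ratios between the genes within a library were taken as differences of log2 CPM with a prior count of 2, which shrinks those with the low counts of Slc17a7. The log2 ratio of Camk2a to Slc17a6 ran from 0.99 to 4.26 over the libraries. It was 4.06 ± 0.21 in stressed males against 3.18 ± 0.97 in control males (SD, n = 4). An exact permutation test, two-sided, gave p = 0.171 (adjusted p = 0.686 over 12 ratio tests). The difference of 0.88 became 0.47 without control male 20. Against stressed females, at 3.03 ± 0.99, the difference was -1.03 with an exact permutation p of 0.0571 (adjusted p = 0.685), and -0.56 without stressed female 1. In females stress made a difference of 0.17 in this ratio (exact permutation p = 0.8). All 12 tests, which also covered Slc17a7 over Slc17a6 and Camk2a over Slc17a7, had adjusted p of 0.685 or more, and the smallest unadjusted p that 4 against 4 libraries can give is 0.0286. A single ratio at that smallest p would not pass the adjustment over 12 tests, so these adjusted values say little. Stressed males 11 to 14 were the tightest group in this ratio, as they were in Slc17a6.

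The level of Camk2a moved with the mitochondrial share of gene counts. The share was 64.2% in control female 10, 69.6% in stressed female 1 and 70.8% in control male 18, the 3 libraries lowest in Camk2a, and 82.5% in stressed male 11 and 80.3% in control female 6, the highest in it. Over 16 libraries r was 0.89 (permutation p = 4e-05, adjusted p = 0.00012 over the 3 genes) and rho 0.74 (permutation p = 0.0017). Without control female 10 and stressed male 11, the farthest in the share, r was 0.74 (permutation p = 0.00185). Within the 13 HTSeq libraries r was 0.90 (permutation p = 3e-05). With group means taken out over 16 libraries it was 0.87 (permutation p = 2e-05, which may be too small). Control male 20 departed from this pattern, with a share of 78.3% and 51.1 CPM of Camk2a. The measure was examined after the levels had been seen. How many of the other genes follow the share as closely was not computed, so the relation may not be particular to Camk2a. Leaving mitochondrial genes out before scaling gave r = 0.89 (permutation p = 3e-05).

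For Slc17a6 the correlation with the share was r = -0.55 (permutation p = 0.0263, adjusted p = 0.0394; rho = -0.30, permutation p = 0.253), but -0.34 (permutation p = 0.236) without control female 10 and stressed male 11. It was -0.64 (permutation p = 0.0227) within the HTSeq libraries, and -0.24 (permutation p = 0.485) there without stressed female 1 and control male 18. With group means taken out it was -0.46 (permutation p = 0.0715). Control male 20 had 13.1 CPM of Slc17a6 at a share above the median of 75.9%. For Slc17a7 it was r = 0.12 (permutation p = 0.661). By group the share had its highest median in stressed males, at 77.1% (76.0% to 82.5%), and medians of 75.0% to 75.2% in the other groups. Stressed males were also the group with the highest mean of Camk2a. Its part in the levels of Camk2a and Slc17a6 was not tested.

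**Figure D4:**
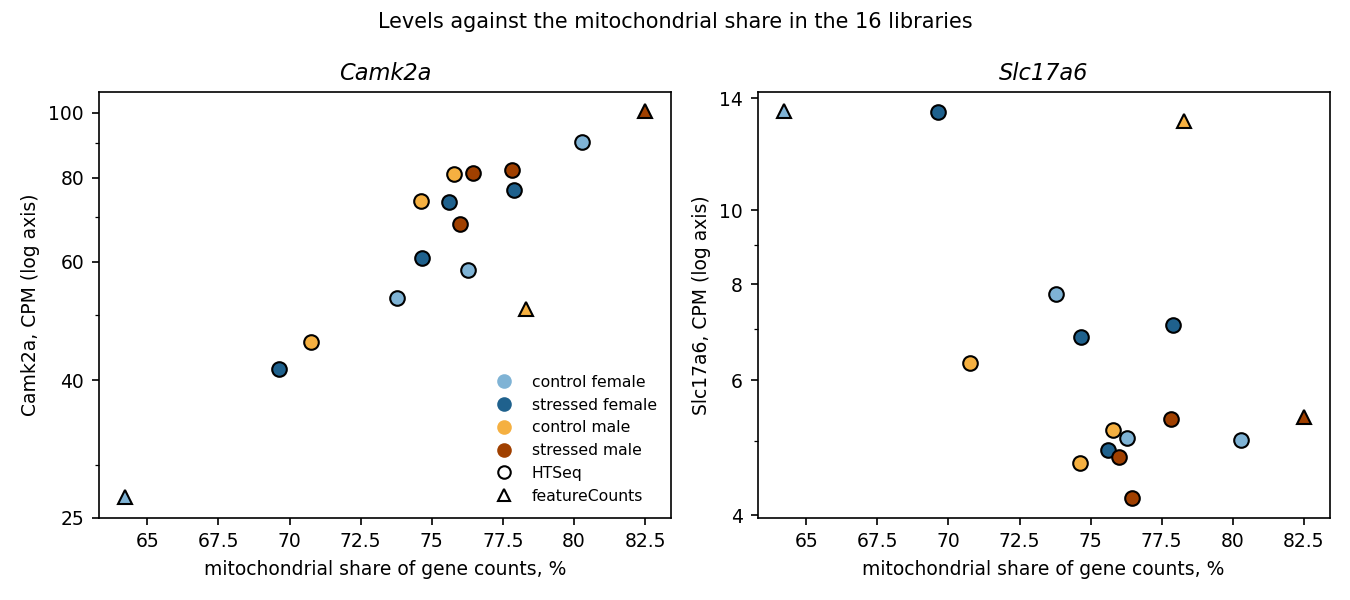
Camk2a (left) and Slc17a6 (right) in CPM on log axes against the mitochondrial share of gene counts in percent, 1 point per library, coloured by group, with triangles for featureCounts libraries. Camk2a runs from 26.8 CPM at a share of 64.2% to 100.5 CPM at 82.5%, with control male 20 below the trend at 51.1 CPM, and Slc17a6 is high in 2 libraries of low share and in control male 20.

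Levels were also set beside the counting program. Of the 3 featureCounts libraries 2 were among the 3 highest, at 13.5 and 13.1 CPM, while the third, stressed male 11, had 5.37 CPM, and stressed female 1, an HTSeq library, had 13.4. With the program as a term in the edgeR fit, the featureCounts minus HTSeq difference was 0.93 on the log2 scale for Slc17a6 (SE 0.23, adjusted p = 0.14), 0.67 for Slc17a7 (SE 0.58, adjusted p = 0.779) and -0.36 for Camk2a (SE 0.29, adjusted p = 0.766). The unadjusted p for Slc17a6 was 0.000664 by edgeR, and 23 of the 14241 genes were called for this term. Stressed females had no featureCounts library, and the part of the program in these levels was not tested further.

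The genes whose log2 CPM followed each of the 3 most closely over the 16 libraries are given by identifier, since the files do not pair them with names. These correlations are descriptions over libraries that share depth, program and mitochondrial share. For Camk2a, 127 of 14240 other genes had r of at least 0.8 and 25 had r of -0.8 or below. The closest were ENSRNOG00000022421 (chromosome 16, 20740826 to 20794039, r = 0.96) and ENSRNOG00000019857 (chromosome 7, 11582984 to 11628929, r = 0.96), which had r of -0.79 and -0.73 with Slc17a6. The most opposed were ENSRNOG00000005149 (chromosome 8, 132607166 to 132663502, r = -0.92) and ENSRNOG00000019091 (chromosome 1, 47942500 to 47967631, r = -0.91). Within the 13 HTSeq libraries the r of these genes with Camk2a was 0.91, 0.923, -0.8 and -0.838, in the order named.

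For Slc17a6, 5 genes reached r of 0.8 and 4 reached -0.8. The closest were ENSRNOG00000000611 (chromosome 20, 18547370 to 18580291, r = 0.88) and ENSRNOG00000050932 (chromosome 3, 168124673 to 168132786, r = 0.85). The most opposed were ENSRNOG00000019572 (chromosome 16, 20506399 to 20511818, r = -0.85) and ENSRNOG00000001420 (chromosome 12, 22750485 to 22765308, r = -0.83), with r of 0.78 and 0.68 with Camk2a. Within the 13 HTSeq libraries the r of these genes with Slc17a6 fell to 0.79, 0.71, -0.715 and -0.689, in the order named.

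For Slc17a7, 1 gene reached 0.8 and 1 reached -0.8. The closest were ENSRNOG00000057829 (chromosome 5, 151024460 to 151024623, r = 0.82), itself at 0 to 0.416 CPM, and ENSRNOG00000008244 (chromosome 6, 93563446 to 93667675, r = 0.79). The most opposed were ENSRNOG00000010594 (chromosome 4, 80342706 to 80367606, r = -0.91) and ENSRNOG00000014568 (chromosome 10, 14090128 to 14092289, r = -0.80). Within the 13 HTSeq libraries the r of these genes with Slc17a7 was 0.848, 0.815, -0.893 and -0.808, in the order named. At 2 to 51 counts of Slc17a7 per library, these likenesses carry a wide counting error.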

How the data were processed

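Bulk RNA of the nucleus basalis of Meynert was measured in 16 libraries, prepared from total RNA with a NuGen Ovation kit (per the labels' protocols). The authors deposited unnormalised counts for each Ensembl gene. Per the submitters' processing notes STAR 2.5.2a, HTSeq and the build Rnor_6.0 were used, and per the file headers 3 libraries were counted with featureCounts 1.6.1 and Ensembl release 92. Neither source says that counting used strand. Closing lines that name no gene stayed out, and in HTSeq files they were 44.8% to 64.7% of what was counted, with a median of 47.2%. The highest were stressed male 14 at 64.7%, control female 7 at 62.5% and stressed female 1 at 62.0%. Entries not aligned made up 38.8%, 40.8% and 15.4% of what was counted in these libraries, in the same order. Names were paired with the 3 identifiers outside the files and checked by chromosome. Spans were set beside those of RefSeq, and that of Camk2a did not match (101892 against 62727 bases). Lists of other glutamate genes and cell type markers were not applied, for want of gene names.

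The 4 group means were fitted to all 16 libraries with edgeR 4.0.16 in R 4.3.3 (filterByExpr, which left 14241 genes, TMM, robust quasi-likelihood), and adjusted p-values are Benjamini-Hochberg values over those genes. SE is the log2 fold change over the root of its F statistic. Log2 CPM used a prior count of 2. Correlations had 100000 permutations, two-sided. Deviations from group means were permuted freely over libraries, without allowing for the group means removed, so their p-values may be too small. DESeq2 1.42.0, limma 3.58.1 (voom), RLE factors, no filter, no mitochondrial genes, the program as a covariate or its libraries left out, and each library left out were tried. The fit was tested on simulated data. Named were the 3 genes and, for each, the 2 genes with the highest and the 2 with the lowest correlation. Members and lists were chosen with earlier results of these data known.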

Additional observations from a re-analysis of the deposited data

How the results depend on the processing

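None of the 18 fold changes of the 3 genes was called in the analysis as reported. Of their values under settings other than leaving out 1 library, 118 kept direction and stayed uncalled, 7 changed sign and 1 became called. With no low-count filter, Slc17a6 in stressed females against stressed males had 0.708 (adjusted p = 0.00828 by edgeR), where 105 of 25215 genes were called. The cause of this call was not tested. Unadjusted p-values of Slc17a6 and Camk2a also fell in other comparisons of that setting, as given above, without a call. Sign changes for stress in females were Slc17a6 at -0.083 (limma voom) and -0.002 (no filter) and, without the featureCounts libraries, Camk2a at -0.09. The same libraries turned Slc17a7 to -0.028 for stress in males and to 0.484 for the sex difference of the stress effect, Slc17a6 to 0.13 for average stress, and Camk2a to 0.011 between control sexes. With 1 library left out, adjusted p stayed at 0.375 or more, but the range crossed 0 for stress in females (Slc17a6 -0.351 to 0.441, lowest without stressed female 1; Camk2a -0.089 to 0.464, lowest without control female 10), for the sex difference of the stress effect (Slc17a7 -1.012 to 0.295; Camk2a -0.492 to 0.061), between control sexes (Slc17a6 -0.318 to 0.559; Camk2a -0.454 to 0.101) and between stressed sexes (Slc17a7 -0.234 to 1.073).

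The correlation of Slc17a6 with Camk2a was -0.821 to -0.71 with 1 library left out, and -0.499 without the 3 libraries highest in Slc17a6. That of Slc17a6 with Slc17a7 was -0.02 on deviations from group means, -0.002 without those 3 and -0.107 to 0.161 with 1 library left out. That of Slc17a7 with Camk2a was -0.046 without the featureCounts libraries and -0.059 to 0.225 with 1 left out. Without the featureCounts libraries 5 ratios changed sign: Slc17a7 over Slc17a6 for stress in females (-0.234) and between stressed sexes (0.082), Camk2a over Slc17a7 for stress in females (-0.219) and males (0.397), and Camk2a over Slc17a6 for stress in females (-0.453). With 1 library left out the ranges that crossed 0 were -0.349 to 0.632 and -0.848 to 0.235 for the first pair of these, -0.501 to 0.462 and -0.497 to 0.355 for the second, and for Camk2a over Slc17a6 -0.453 to 0.636 (stress in females) and -0.757 to 0.299 (control sexes).

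Calls among all genes were 9, 17, 48, 0, 16 and 13 of 14241 genes tested, in the order of the report's background. With no filter they were 105, 88, 207, 36, 54 and 105 of 25215. DESeq2 gave 27, 31, 103, 1, 24 and 14 and limma voom 10, 11, 39, 0, 16 and 13, both of 14241. Without the featureCounts libraries they were 14, 5, 29, 0, 10 and 14 of 14402. With 1 library left out they were 6 to 13, 7 to 21, 28 to 56, 0, 12 to 19 and 10 to 13, of 14471 to 14615 genes. No paired analysis was possible because the groups share no replicate number. Leaving out the 3 libraries highest in Slc17a6, and the mitochondrial share, were chosen after seeing the data. Depth limits Slc17a7, at 2 to 51 counts per library.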
